A study of Mus musculus with 24 samples.

Results

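The MHC class I antigen presentation genes described here are B2m, H2-K1, H2-D1, Nlrc5, Tap1, Tap2, Tapbp, Psmb8, Psmb9 and Psmb10, 10 of the 54146 genes in the count tables. They were listed by symbol and matched to the gene identifiers of the tables, by a rule that uses no measured value. The members were, however, chosen with earlier results of these data known. RNA had been sequenced from mouse small intestinal organoids in 2 experiments. Each comprised 12 libraries in 4 groups of biological triplicates, and the p-values below measure the spread between such libraries. The first experiment asked how loss of the Mediator kinases CDK8 and CDK19 alters transcription, and the second asked the same of Senexin B, an inhibitor of both kinases.

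The genotype experiment held WT, Cdk8-/-, Cdk19-/- and double knockout (Cdk8-/- and Cdk19-/-) organoids, all lysed after 7 days in 600 nM 4-hydroxytamoxifen, so that the WT controls carried the same treatment. Per the study's methods, Cdk8 lost exon 2 through a Villin-driven CreERT2 that acts in epithelial cells, and Cdk19 was mutated with a CRISPR guide followed by growth from picked organoids, so that the organoids of a genotype may descend from few founders. The Senexin B experiment held WT organoids that received Senexin B or its vehicle DMSO over 16 h or 24 h. The protocol deposited with these samples also names 4-hydroxytamoxifen, and whether they received it is not clear from the labels. Its libraries were made from rRNA-depleted total RNA, whereas the genotype libraries were made from oligo(dT)-selected RNA, and no test was made across the experiments.

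Class I molecules are cell-surface complexes of a heavy chain, such as the products of H2-K1 and H2-D1, with the light chain β2-microglobulin, encoded by B2m. They display peptides that the proteasome cuts in the cytosol, that the TAP1 and TAP2 transporter carries into the endoplasmic reticulum and that tapasin, the product of Tapbp, helps to load. Interferons raise the transcription of this set, in large part through NLRC5, the class I transactivator, and exchange the constitutive β5, β1 and β2 proteasome subunits (Psmb5, Psmb6 and Psmb7) for the immunoproteasome subunits encoded by Psmb8, Psmb9 and Psmb10.

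Gene counts summed to between 14636861 and 15473180 reads in the genotype libraries and to between 27075937 and 28405118 in the Senexin B libraries. The counts used were those of the reverse-strand column of the tables. It held 87.9% to 90.5% of the stranded Senexin B reads, but only 49.6% to 49.7% of the genotype reads, as an unstranded library gives, so that about as many genotype reads again were not used. In the genotype experiment the column held 40.2% of the B2m reads, the lowest share of the members, and 50.6% of those of H2-K1. The labels give the genotype libraries the cell type 4T1, a mammary tumour line, beside the tissue intestinal organoids. All 14 intestinal epithelial markers were detected in every group, with Epcam at 19443 raw counts or more and Vil1 at 11558 or more, whereas no mammary marker exceeded 3 raw counts in WT or Cdk19-/- libraries and none exceeded 23 in any genotype library. Of 13 haematopoietic markers, between 9 and 11 had at most 3 raw counts in every library of a group, and Cd8a and Gzmb were at 0 throughout. In the genotype libraries Csf1r had 162 to 222 raw counts, and Itgam and Ptprc reached 30 and 21. The Cdk19 count did not follow every label. Replicate 1 labelled Cdk19-/- had 729 normalised counts and replicate 3 labelled double knockout had 773, against 711, 749 and 726 in WT and 355 to 422 in the other 4 libraries labelled as lacking Cdk19. Genotype names below are therefore those of the labels, and the counts of members called, with B2m and H2-K1, are also given without these 2 libraries. Cdk8 counts were 635, 646 and 534 for WT and 685, 857 and 634 for Cdk8-/-. They do not check the labels, since the deletion removes 1 exon of the gene.

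RefSeq start sites in the GRCm38.p6 build were available for 8 of the 10 members, all but Nlrc5 and Tap2, as 9 windows of 300 bases, 250 before and 50 after the start, with H2-K1 listed at 2 starts. The upstream sequences of B2m and H2-K1 are shown because these genes carried the change in the double knockout described below, and the capitals mark matches to 3 motifs, the interferon-stimulated response element core GAAANNGAAA, the shorter core bound by interferon regulatory factors, AANNGAAA, which lies within it, and the NF-kB consensus, each searched on both strands.
B2m (chr2:122147437-122147686, plus strand): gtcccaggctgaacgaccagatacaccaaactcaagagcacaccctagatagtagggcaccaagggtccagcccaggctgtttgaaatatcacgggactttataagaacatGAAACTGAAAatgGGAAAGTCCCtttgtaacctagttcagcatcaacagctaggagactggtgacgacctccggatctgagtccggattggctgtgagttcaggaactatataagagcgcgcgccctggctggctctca
H2-K1 (chr17:34000348-34000597, minus strand): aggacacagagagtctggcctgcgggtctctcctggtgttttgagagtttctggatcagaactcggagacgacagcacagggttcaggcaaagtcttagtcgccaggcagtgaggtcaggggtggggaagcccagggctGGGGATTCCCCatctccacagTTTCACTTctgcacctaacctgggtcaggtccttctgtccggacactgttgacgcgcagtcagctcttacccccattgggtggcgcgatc
In both promoters the interferon regulatory factor core and the NF-kB consensus lay side by side, in opposite order, and H2-D1 held the same pair. The stretch that spans them is set side by side for the 3 genes.
B2m, bases -139 to -117 from the start: GAAACTGAAAatgGGAAAGTCCC
H2-K1, bases -111 to -83: GGGGATTCCCCatctccacagTTTCACTT
H2-D1 (chr17:35262923-35262951, plus strand), bases -171 to -143: GGGGATTCCCCatctcctcagTTTCACTT
The H2-K1 and H2-D1 stretches differed at 1 of 29 bases. AANNGAAA was found in the windows of these 3 members and in 23.9% of all 32851 RefSeq windows, GAAANNGAAA in B2m and in 3.44% of all windows, and the NF-kB consensus in the same 3 members and in 8.46% of all windows. None of the 3 was matched in the windows of Tap1, Tapbp, Psmb8, Psmb9 or Psmb10. The gamma-activated site TTCNNNGAA occurred in Psmb8 alone of the members, at bases -97 to -89, and in 8.30% of all windows. A TGACG core was present in B2m, H2-K1, H2-D1, Tap1 and Psmb9 (20.8% of all windows) and CCAAT in these genes and Tapbp (37.4%), and Tap1 and Psmb9 share these matches because their windows overlap on opposite strands. These matches describe letters in the windows and not binding.

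Levels between genes were compared as CPM (counts scaled to a common library size) per kilobase of exon. In WT organoids of the genotype experiment B2m was highest at 369 ± 9.58 (SD, n = 3), followed by H2-K1 at 110.1 ± 18.5 and H2-D1 at 67.4 ± 6.06. Psmb10 stood at 28.8 ± 0.687 and Tapbp at 25.2 ± 2.04, and the transporter genes were lower, with Tap2 at 5.83 ± 0.201 and Tap1 at 4.77 ± 0.55. At the bottom were Psmb9 at 2.75 ± 0.288, Psmb8 at 0.459 ± 0.168 and Nlrc5 at 0.0161 ± 0.0162. The libraries of neighbours in this order did not overlap. In the DMSO libraries of 16 h the order was the same except that Tap1, at 14.8 ± 0.978, stood above Tap2, at 6.11 ± 0.614, and there Tap2 overlapped Psmb9 (4.89 ± 0.535) and Psmb8 overlapped Nlrc5 (0.316 ± 0.0668 and 0.23 ± 0.103).

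The light chain and the heavy chain H2-K1 were higher in the libraries labelled double knockout than in WT, and no other member passed the test in that comparison. B2m (chr2:122147686-122153083, GRCm38) gave 4601, 4821 and 4807 normalised counts for WT against 8785, 9365 and 7503 for the double knockout, with no overlap. Its log2 fold change was 0.85 (standard error 0.215, edgeR adjusted p = 0.0194). H2-K1 (chr17:33996017-34000347), a classical heavy chain, gave 5019, 5536 and 3941 for WT against 7832, 9206 and 8919 for the double knockout, again without overlap. It rose by 0.84 on the log2 scale (standard error 0.21, adjusted p = 0.0182). The other classical heavy chain, H2-D1 (chr17:35262730-35267499), gave 2628, 2811 and 2348 against 3419, 4218 and 4237. Its groups did not overlap either, but the log2 fold change of 0.61 (95% confidence interval -0.01 to 1.22) did not pass the test (adjusted p = 0.161). Of the 50-base stretches of the H2-K1 and H2-D1 transcripts, 9.63% and 12.8% also occur in other genes, mostly class I genes, and reads of near-identical heavy chains cannot be assigned with certainty. Without the 2 libraries at the WT level of Cdk19, the values in the double knockout were 0.93 for B2m (adjusted p = 0.00908) and 0.82 for H2-K1 (adjusted p = 0.0127), in a fit that called 19.0% of all genes. Both calls were lost without WT replicate 1 or 3 or without double knockout replicate 2, with adjusted p-values of 0.0733, 0.053 and 0.0593 for B2m and 0.0577, 0.0662 and 0.0524 for H2-K1. That of B2m was also lost without WT replicate 2 (adjusted p = 0.0598), and the log2 fold changes stayed between 0.72 and 0.96 over these exclusions.

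In the single knockouts the same 3 genes varied between libraries. B2m had 5601, 5138 and 8550.4 normalised counts in the libraries labelled Cdk8-/- and 8087, 5769 and 4436 in those labelled Cdk19-/-. H2-K1 had 6245, 5230.4 and 7769 in Cdk8-/- and 8825, 5879.8 and 4861 in Cdk19-/-. H2-D1 had 3441, 2429 and 4857 in Cdk8-/- and 5167, 3067 and 2184 in Cdk19-/-. The B2m counts of Cdk8-/- all lay above those of WT, as 14.9% of all genes tested did, and the other groups overlapped WT. Replicate 3 of Cdk8-/- and replicate 1 of Cdk19-/- were the highest of their groups for each of the 3 genes. No test against WT was passed, with log2 fold changes of 0.44, 0.41 and 0.46 for B2m, H2-K1 and H2-D1 in Cdk8-/- and of 0.36, 0.43 and 0.42 in Cdk19-/-. The interval of B2m in Cdk8-/-, -0.03 to 0.91, still held the value of the double knockout. Without Cdk8-/- replicate 3 the 3 values were 0.16, 0.23 and 0.16, and without Cdk19-/- replicate 1 they were 0.12, 0.17 and 0.03.

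**Figure D1:**
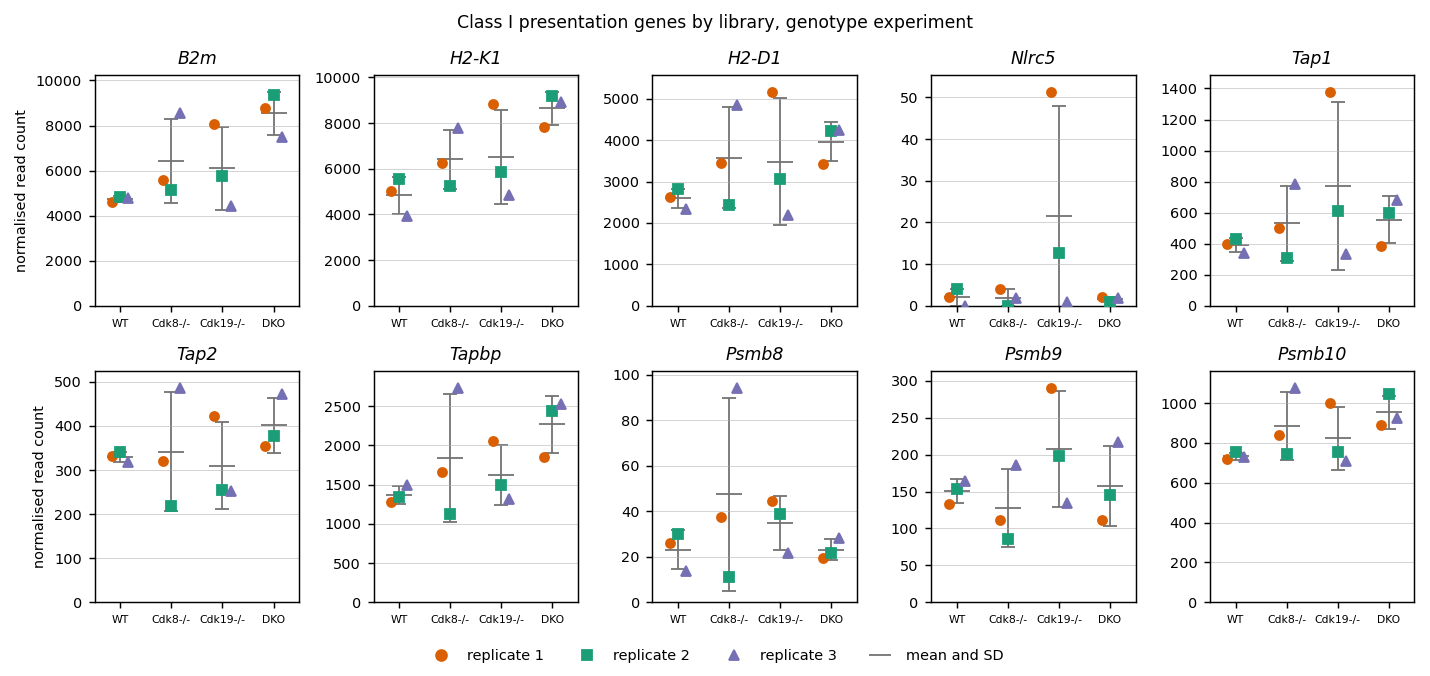
Normalised read counts (vertical axes, from 0) of the 10 members in the 12 libraries of the genotype experiment; symbols are the 3 libraries of a group and bars the mean and SD. B2m and H2-K1 lie higher in all 3 double knockout (DKO) libraries than in all 3 WT libraries, whereas in the single knockouts Cdk8-/- replicate 3 and Cdk19-/- replicate 1 lie apart from the other libraries of their groups.

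Nlrc5 (chr8:94434356-94527272), the class I transactivator, was scarcely detected in the genotype experiment. Its raw counts were 2, 4 and 0 in WT, 4, 0 and 2 in Cdk8-/- and 2, 1 and 2 in the double knockout libraries, at or near the limit of 3 counts that a count of 0 allows. In Cdk19-/- they were 51, 13 and 1, so that only replicates 1 and 2 stood above that limit. The gene did not pass the filter on low counts in this experiment and so has no value in the fit reported here. Fits without that filter called it in Cdk19-/- against WT (edgeR) and against the double knockout (edgeR and DESeq2). Over the 12 libraries 82 Nlrc5 reads stood in the column used and 91 in the other strand's.

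The transporter genes and Tapbp were not called in any genotype in the edgeR fit reported here. Tap1 (chr17:34187553-34197225), a subunit of the transporter, gave 398, 431 and 342 normalised counts for WT, 501, 308 and 787 for Cdk8-/-, 1379, 609.7 and 336 for Cdk19-/- and 388, 597 and 679.8 for the double knockout. The highest of the 12 libraries was Cdk19-/- replicate 1, and every group overlapped WT. Its log2 fold change was 0.99 in Cdk19-/- (standard error 0.44, adjusted p = 0.437) and 0.29 without that library. An edgeR fit of all libraries without the filter on low counts called it in Cdk19-/- (0.99, adjusted p = 0.0353). Tap2 (chr17:34203527-34216321), the partner subunit, gave 331, 340.0 and 317 for WT against 355, 378 and 473 for the double knockout. Although these groups did not overlap, the difference of 0.29 (standard error 0.262) had an adjusted p of 0.483. Tapbp (chr17:33915899-33929292) gave 1274, 1339 and 1489.7 for WT against 1851, 2433 and 2527 for the double knockout. The Tapbp groups did not overlap, and the log2 fold change of 0.73 (standard error 0.263) missed the threshold (adjusted p = 0.075), whereas DESeq2 called it (adjusted p = 0.0297). The genotype libraries carry no strand, and 904 exon bases of Tapbp overlap the antisense gene Gm19412 and 698 of Tap2 overlap 2 antisense genes, so reads of these pairs cannot be told apart there. The same holds for 498 exon bases of Psmb8, which overlap the antisense gene Gm20496, and for 212 that Tap1 and Psmb9 share on opposite strands.

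No immunoproteasome gene was called in the double knockout in the edgeR fit reported here, and Psmb10 was the only one of them whose groups did not overlap. Psmb10 (chr8:105935735-105938444), which encodes the subunit β2i, gave 718, 753 and 732 normalised counts for WT against 891, 1048 and 925 for the double knockout. The log2 fold change was 0.38 (standard error 0.149, adjusted p = 0.0999). Psmb8 (chr17:34197721-34201454), which encodes β5i, gave 26.1, 29.8 and 13.6 for WT against 19.4, 21.7 and 28.2 for the double knockout (log2 fold change -0.01, interval -1.33 to 1.31). Psmb9 (chr17:34181987-34187764), which encodes β1i, gave 134, 153 and 165 against 111, 145 and 217 (log2 fold change 0.07, interval -0.65 to 0.78). These intervals are wide, and that of Psmb8, the rarest member that passed the filter, held the value of B2m. In Cdk8-/-, Psmb8 had 37.3, 11.2 and 94.1, a wider range than in any other genotype, and its log2 fold change fell from 1.04 to 0.05 without replicate 3.

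The balance of inducible to constitutive subunits was followed as the ratio of normalised counts of Psmb8 to Psmb5, Psmb9 to Psmb6 and Psmb10 to Psmb7. The ratios were not corrected for exon length, so they compare libraries and do not give the relative amounts of the paired subunits. Psmb10 reached 62.8%, 63.9% and 62% of Psmb7 for WT and 70.5%, 86% and 96.8% for the double knockout, with no overlap. The log2 ratio was higher by 0.41, and the two-sided exact permutation test gave p = 0.10, the smallest that 3 against 3 libraries allow (adjusted p = 0.375 over 15 tests). Psmb9 reached 7.02%, 7.97% and 8.72% of Psmb6 in WT and 6.56%, 7.06% and 13.8% in the double knockout, and Psmb8 13.8%, 11.8% and 7.18% of Psmb5 in WT and 8.41%, 8.37% and 15.7% in the double knockout. Both pairs overlapped between these groups. In Cdk19-/- the Psmb9 ratio was 14%, 13% and 8.66% (log2 difference 0.56, exact permutation p = 0.20). There the Psmb10 ratio was 71.1%, 64.2% and 67.3%, also above the WT libraries without overlap (log2 difference 0.10, exact permutation p = 0.10). In Cdk8-/- the log2 ratio differed from WT by -0.35 for Psmb9, 0.34 for Psmb8 and 0.06 for Psmb10 (exact permutation p = 0.50, 0.70 and 1.0), and Psmb8 in Cdk19-/- by 0.63 (p = 0.20 in the same exact test). With this test no ratio could pass the threshold.

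Across the 9 members that passed the filter in the genotype experiment, 2 were called at an adjusted p below 0.05 in the double knockout against WT, both higher, beside 17.3% of the 15602 genes tested. The groups did not overlap, with the double knockout higher, for 6 members (B2m, H2-K1, H2-D1, Tap2, Tapbp and Psmb10), beside 18.7% of all genes tested. The median log2 fold change of the 9 was 0.51 against -0.01 over all genes, and 8 of 9 were above 0. No member was called by edgeR in Cdk8-/- against WT (0 at an unadjusted p below 0.05 and 0 with DESeq2), where 5.15% of all genes were called, or in Cdk19-/- against WT (Tap1 alone at an unadjusted p below 0.05 and 0 with DESeq2), where 0% of all genes were called, 1691 reached an unadjusted p below 0.05 and DESeq2 called 309. Without the 2 libraries at the WT level of Cdk19 the count of members in Cdk19-/- was again 0, while 4.21% of all genes were called. With all libraries the medians of the 9 were 0.43 in Cdk8-/- and 0.42 in Cdk19-/-, and each turned on 1 library, as they were 0.05 without Cdk8-/- replicate 3 and 0.12 without Cdk19-/- replicate 1. These 3 comparisons share the WT libraries.

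Directly against the single knockouts, the double knockout differed in no member by edgeR. Against Cdk8-/-, 0 members were called (0 at an unadjusted p below 0.05, 0 with DESeq2) beside 0.0256% of all genes, and the log2 fold changes of B2m and H2-K1 were 0.41 and 0.43 (adjusted p = 0.384 and 0.347). Without the 2 libraries at the WT level of Cdk19 they were 0.51 and 0.42, and 0 members were called beside 0.139% of all genes. In the fit of all libraries the other tested members lay between -1.04 (Psmb8) and 0.30 (Tapbp), with H2-D1 at 0.15, Tap1 at 0.06, Tap2 at 0.23, Psmb9 at 0.30 and Psmb10 at 0.11. These values depended on single libraries, in both directions. Removing Cdk8-/- replicate 3 put Psmb8 at -0.06 and Tapbp at 0.71, and raised the median of the 9 from 0.23 to 0.59. Removing replicate 2 of that group instead lowered the median to -0.004, and it was 0.11 when replicate 3 of the double knockout was dropped. Over such removals B2m (0.27 to 0.68) and H2-K1 (0.30 to 0.60) stayed positive, whereas H2-D1 fell as low as -0.07 and Tap1 as low as -0.22. Against Cdk19-/-, where 25.3% of all genes were called, 0 members were called, with B2m alone at an unadjusted p below 0.05 and Nlrc5 alone called by DESeq2. That count turned on replicate 1 of Cdk19-/-. Without it B2m (log2 fold change 0.72, adjusted p = 0.0221) and H2-K1 (0.67, adjusted p = 0.0197) were called beside 27.1% of all genes, and without both libraries at the WT level of Cdk19 they were 0.82 and 0.65 (adjusted p = 0.0175 and 0.0349) beside 28.5%. In the fit of all libraries the log2 fold changes were 0.49 for B2m, 0.41 for H2-K1, 0.19 for H2-D1, -0.48 for Tap1, 0.38 for Tap2, 0.49 for Tapbp, -0.60 for Psmb8, -0.40 for Psmb9 and 0.21 for Psmb10. Without Cdk19-/- replicate 1 Tap1 turned to 0.21, and H2-D1 was at 0.57, Tap2 at 0.65, Psmb10 at 0.36 and Psmb9 at -0.10. Removing other single libraries took Tap1 as low as -0.86, H2-D1 to -0.08, B2m to 0.28 and H2-K1 to 0.21. The median of the 9 was 0.21 with all libraries and 0.10 without Cdk19-/- replicate 3. Markers of immune cells differed in the same comparison, as Ptprc (3.31, adjusted p = 0.0197) and Itgam (2.44, adjusted p = 0.00667) were called higher in the double knockout than in Cdk19-/-, from at most 30 raw counts in a library, and their part in the class I values was not tested. In the test of a departure from additive single-knockout effects, 0 members were called (0 at an unadjusted p below 0.05, 0 with DESeq2) beside 0.0256% of all genes, and B2m and H2-K1 departed by 0.05 (interval -0.61 to 0.71) and -0.00 (interval -0.64 to 0.64). Without the same 2 libraries the departures were 0.39 and 0.26, and again 0 members were called, beside 4.6% of all genes. The other members departed by -0.27 (H2-D1), -0.93 (Tap1), 0.32 (Tap2), 0.06 (Tapbp), -1.63 (Psmb8), -0.16 (Psmb9) and -0.06 (Psmb10) in the fit of all libraries. Without Cdk8-/- replicate 3 that of Psmb8 was -0.66, and without Cdk19-/- replicate 1 that of Tap1 was -0.22.

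**Figure D2:**
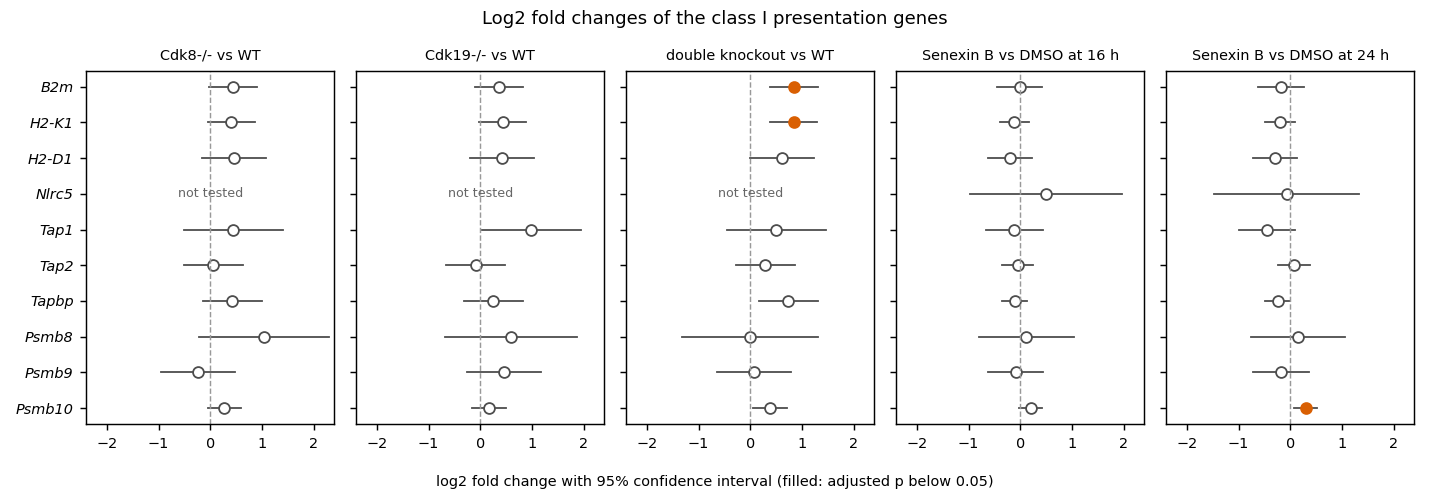
Log2 fold changes (horizontal axes) of each member against its control in 5 comparisons; points are edgeR estimates, lines 95% confidence intervals, and filled points have an adjusted p below 0.05. B2m and H2-K1 are called in the double knockout and Psmb10 with Senexin B at 24 h, and the intervals of Psmb8 and Nlrc5 are the widest.

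High and low libraries were shared by most members. Cdk8-/- replicate 3 was the highest of its group for 9 of 10 members, beside 36.4% of all genes tested, and replicate 2 was the lowest for 10 of 10, beside 34.6%. Cdk19-/- replicate 1 was the highest for 10 of 10 (46.6% of all genes) and replicate 3 the lowest for 10 of 10 (30.7%). The spread within these groups was thus shared by heavy chain, transporter and immunoproteasome genes. In the other groups WT replicate 2 was the highest for 8 of 10 members (31.2% of all genes), and double knockout replicate 1 the lowest for 8 of 10 (34.6%). The 10 include Nlrc5, which did not pass the filter on low counts. The highest and lowest of the 12 libraries differed most for Psmb8 (8.39 times) and Tap1 (4.48 times) and least for Psmb10 (1.51 times), Nlrc5 apart. The summed CPM of the 13 haematopoietic markers were 15.3 to 16.4 in Cdk8-/-, above the 11.7 to 14.7 of WT. They were 10.9 to 12.3 in Cdk19-/- and 13.9 to 15.3 in the double knockout, both overlapping WT. Csf1r made up most of these sums, with 162 to 222 raw counts per library, and no other marker of the list exceeded 30. The part of these markers in the class I values was not tested.

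Likeness to the members was measured as the Pearson correlation, over the 12 libraries of an experiment, with the mean standardised log2 level of the members that passed the filter. In the genotype experiment the 5 other genes most alike were Ube2l6 (0.95), Ifih1 (0.95), Parp12 (0.92), Trim30d (0.92) and Ccdc97 (0.92). In the Senexin B experiment they were Oas1a (0.98), Rtp4 (0.98), Oas1g (0.98), Gbp3 (0.97) and Trim30a (0.97). Among the members, which form the profile themselves, H2-D1 was closest to it in the genotype experiment (0.98) and Psmb9 in the Senexin B experiment (0.98). Psmb9 was the least alike in the former (0.68) and Psmb10 in the latter (0.42). The points of each correlation share libraries, depth and normalisation, and the values are descriptions.

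**Figure D3:**
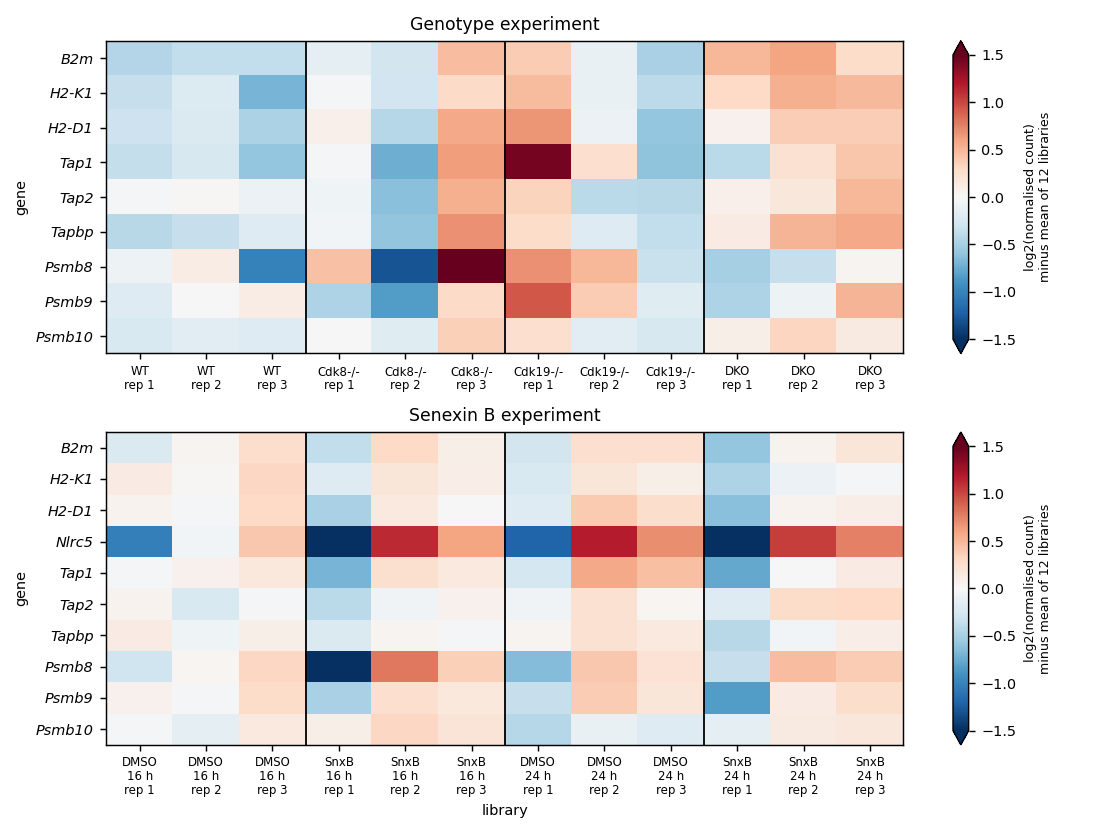
Log2 normalised count of each member in each library minus its mean over the 12 libraries of the experiment (colour, cut at 1.5 in either direction), with libraries on the horizontal and genes on the vertical axis; Nlrc5 is left out of the genotype panel because of counts of 0. Columns are mostly of 1 colour, with Cdk8-/- replicate 3 and Cdk19-/- replicate 1 high and, in the Senexin B experiment, replicate 1 low in all groups but DMSO at 16 h.

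With Senexin B, 0 of 10 members were called at 16 h, beside 7.75% of all genes, and 1 at 24 h, beside 27.5%, and libraries of the same replicate number deviated together. Replicate 1 was the lowest library of its group for 10 of 10 members with Senexin B at 16 h and for 10 at 24 h, and for 4 and 10 with DMSO. It was the lowest for 38.8%, 39.4%, 36.4% and 38.9% of all genes in these groups. Nlrc5 had 28.5, 56.6 and 76.7 normalised counts with DMSO and 14.4, 126 and 87.9 with Senexin B at 16 h. At 24 h it had 25.2, 132 and 94.3 with DMSO and 20.5, 119.7 and 98.5 with Senexin B. Treated and control libraries overlapped at both times, and the log2 fold changes of 0.49 (interval -0.98 to 1.97) and -0.07 (interval -1.47 to 1.33) did not pass the test.

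B2m had 8203, 11896 and 11884 normalised counts with DMSO and 6641, 10309 and 11257 with Senexin B at 24 h, and H2-K1 had 13052, 17344 and 16234 and 11069, 14416 and 15095. Each Senexin B library was below the DMSO library of the same number, for both genes and for H2-D1, Tap1 and Tapbp. The log2 fold changes were -0.18 for B2m (interval -0.62 to 0.26) and -0.20 for H2-K1 (interval -0.48 to 0.08), and neither passed the test. At 16 h they were -0.01 (interval -0.45 to 0.43) and -0.12 (interval -0.40 to 0.16). The Senexin B intervals of H2-K1 thus lay below its log2 fold change of 0.84 in the double knockout, although the experiments differ in library type and were not tested against each other.

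Psmb10 rose with Senexin B at 24 h. It had 1311, 1634 and 1544 normalised counts with DMSO and 1609, 1935 and 1982 with Senexin B at 24 h, higher in 3 of 3 libraries of the same number, and its log2 fold change was 0.30 (standard error 0.104, edgeR adjusted p = 0.0456). At 16 h it had 1726, 1591 and 1944 and 1878, 2179 and 2009, again higher in 3 of 3, but the difference of 0.21 (standard error 0.104) did not pass the test (adjusted p = 0.264). The 24 h call was lost without DMSO replicate 1 or 3 or Senexin B replicate 2 or 3 (log2 fold changes 0.21, 0.32, 0.26 and 0.24). Without Senexin B replicate 3 Tapbp was called in its place (-0.35, adjusted p = 0.0478). Psmb10 stood at 42.1%, 40.6% and 37.6% of Psmb7 with DMSO and at 42.5%, 51.6% and 50.8% with Senexin B at 24 h. The log2 ratio was higher by 0.26 at 24 h and 0.26 at 16 h (exact permutation p = 0.10 at each time, adjusted p = 0.375), without overlap at either time. The other pairs had lower mean ratios with Senexin B, overlapping with DMSO, with log2 differences of -0.44 at 24 h and -0.13 at 16 h for Psmb9 to Psmb6 (exact permutation p = 0.40 and 0.90) and of -0.08 and -0.32 for Psmb8 to Psmb5 (exact permutation p = 0.70 and 1.0). The constitutive subunits Psmb5 and Psmb6 also rose at 24 h, by 0.26 (adjusted p = 0.0277) and 0.21 (adjusted p = 0.0404) on the log2 scale, while Psmb7, at 0.03, did not pass the test.

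With the replicate number as a block, which removes the differences shared by libraries of the same number, 4 members were called at 24 h in place of 1, beside 36.9% of all 15467 genes with the block and 27.5% without it. Psmb10 was higher (0.30, adjusted p = 0.00738), and 3 members were lower. Tap1, with 1789, 3181 and 2925 normalised counts under DMSO and 1265, 2157 and 2328 under Senexin B, fell by 0.46 on the log2 scale with the block (standard error 0.119, adjusted p = 0.00677), against an adjusted p of 0.199 without the block. H2-D1 (8323, 12524 and 11470.5, then 6184, 9905 and 10226) had -0.31 (adjusted p = 0.0356, 0.282 without the block) and Tapbp (2286, 2596 and 2461, then 1665, 2163 and 2370.0) had -0.25 (adjusted p = 0.038, 0.12 without the block). With replicate 1 left out of all groups, Psmb10 (0.30), Tap1 (-0.45) and H2-D1 (-0.25) were called beside 32.2% of all genes, an exclusion chosen after these values had been seen. Of the members not yet given at 24 h, Tap2 stood at 0.07, Psmb8 at 0.15 and Psmb9 at -0.18, and none passed either test. At 16 h 0 members were called by edgeR (0 at an unadjusted p below 0.05, 0 with DESeq2) beside 7.75% of all genes, and 0 with the block beside 14.8%. The log2 fold changes at 16 h not yet given were -0.20 for H2-D1, -0.11 for Tap1, -0.05 for Tap2, -0.11 for Tapbp, 0.11 for Psmb8 and -0.09 for Psmb9. The direction at 24 h was thus mixed, with the median of the 10 members at -0.18 against 0.00 over all genes. That median moved to -0.33 without DMSO replicate 1 of 24 h and to 0.05 without Senexin B replicate 1 of 24 h.

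**Figure D4:**
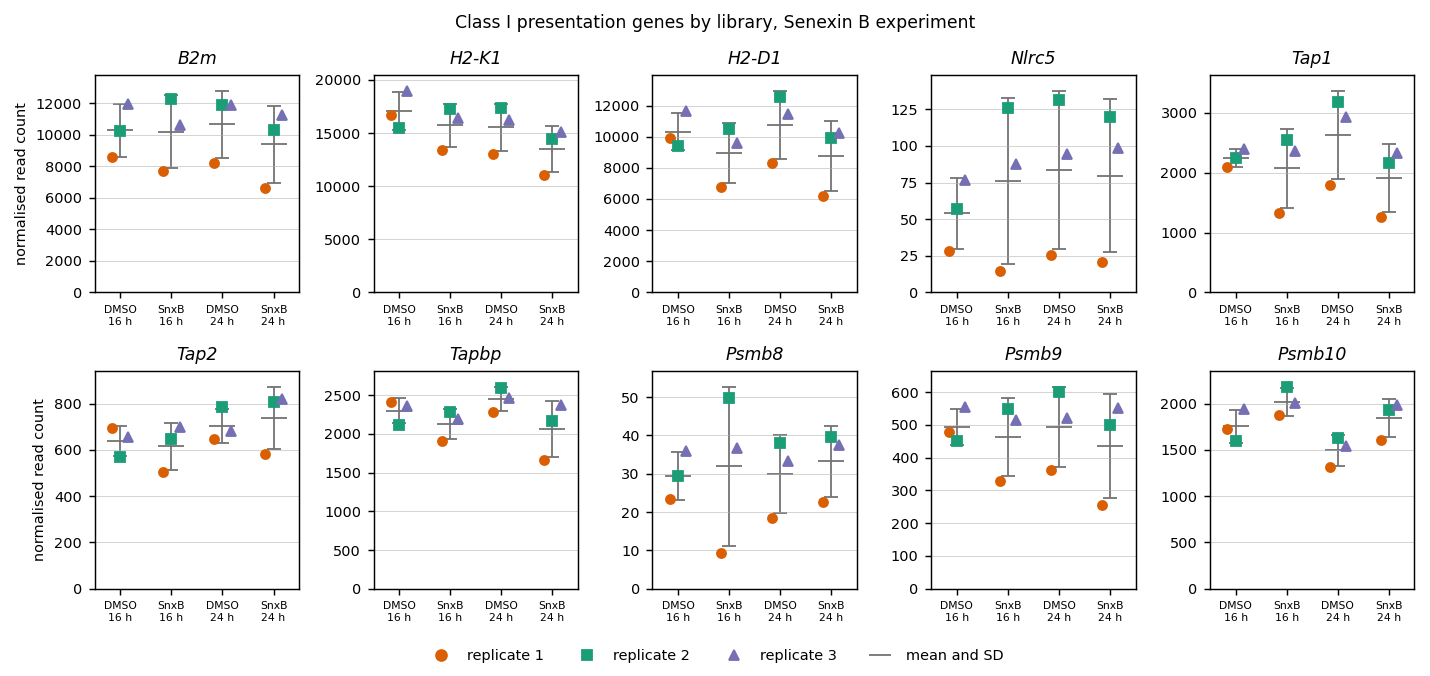
Normalised read counts (vertical axes, from 0) of the 10 members in the 12 libraries of the Senexin B (SnxB) experiment; symbols are the 3 libraries of a group and bars the mean and SD. Replicate 1 is the lowest library for all 10 members in every group but DMSO at 16 h, and Psmb10 is higher with Senexin B than with DMSO at the same replicate number at both times.

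The effect of Senexin B did not differ detectably between 24 h and 16 h for any member (0 called by edgeR, 0 at an unadjusted p below 0.05, 0 with DESeq2), and 0% of all genes were called, with 1995 at an unadjusted p below 0.05 and 66 by DESeq2. The widest of these differences was that of Nlrc5, -0.57 (interval -2.60 to 1.47), and that of Tap1 was -0.34 (interval -1.11 to 0.42). Without replicate 1 the latter was -0.53 and was called (adjusted p = 0.00815), in a fit that called 4.93% of all genes. With all replicates the other members lay between -0.17 (B2m) and 0.12 (Tap2). Between the DMSO groups of 24 h and 16 h 0 members were called by edgeR (Psmb10 alone at an unadjusted p below 0.05, 0 with DESeq2) beside 11.1% of all genes. Its log2 difference was -0.23 (adjusted p = 0.168), and 1 member, Psmb10, was called with the replicate block (adjusted p = 0.0448) beside 21.2% of all genes. Without the block the other members lay between -0.13 (H2-K1) and 0.63 (Nlrc5).

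The genes that work beside the members were counted from lists of their partners. Of 16 peptide loading and processing partners, 3 were higher and 0 lower in the double knockout than in WT, a share close to the 17.3% of all genes. Tapbpl, a tapasin-related peptide editor, rose by 0.57 (standard error 0.181, adjusted p = 0.0474), Psme2, a subunit of the PA28 proteasome activator, by 0.49 (adjusted p = 0.0495) and Calr, the chaperone calreticulin, by 0.47 (adjusted p = 0.0194). Of 16 further class I and class I-like heavy chain genes, 14 could be tested, and 4 were higher and 1 lower. The largest were the non-classical genes H2-Q1 at 2.34 (standard error 0.352, adjusted p = 0.00152), H2-M2 at 2.11 (adjusted p = 0.0159) and H2-Q2 at 1.65 (adjusted p = 3.64e-04), while H2-M3 fell by 1.04 (adjusted p = 0.0296). In Cdk8-/-, H2-Q1 (1.63, adjusted p = 0.0217) and H2-Q2 (0.85, adjusted p = 0.0243) were the called genes of this list, beside 5.15% of all genes, and in Cdk19-/- 0 of 14 were called, as were 0% of all genes. The double knockout medians were 0.11 for the partners and 0.17 for the heavy chain genes, against -0.01 over all genes.

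Of 25 interferon receptors, STAT and IRF factors, 21 could be tested, and in the double knockout 3 were higher and 1 lower, again close to the share of all genes called. The log2 fold change was positive for 18 of the 21, against 48.9% of all genes, and 12 were higher without overlap, against 18.7% of all genes. Their median was 0.34, against -0.01 over all genes. Both subunits of the receptor for interferon lambda rose, Ifnlr1 by 0.70 (adjusted p = 0.00901) and Il10rb by 0.70 (adjusted p = 0.0121), and so did Stat3 by 0.40 (adjusted p = 0.0116), whereas Irf8 fell by 0.55 (adjusted p = 0.0383). Irf1 (0.42), a known activator of class I genes, did not pass the test (adjusted p = 0.174). The interferon genes Ifng, Ifnb1, Ifnl2 and Ifnl3 had a mean of 0 normalised counts in WT and in double knockout libraries. Of 12 enhanceosome and NF-kB factors 0 were called in the double knockout, beside 17.3% of all genes, with a median of 0.04.

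With Senexin B at 24 h, when 27.5% of all genes were called, 1 of the 21 interferon pathway genes was higher and 5 lower, led by Stat2 at -0.80 (adjusted p = 0.0148) and Stat3 at -0.49 (adjusted p = 8.43e-05), with Ifngr1 at 0.35 (adjusted p = 8.61e-04). Rfx5, a DNA-binding part of the class I and class II enhanceosome, fell by 0.64 (adjusted p = 1.89e-04), and 1 of the 12 factors was higher and 2 lower. Both counts were near the share of all genes. Of the 14 tested heavy chain genes 3 were lower and 0 higher, and with the replicate block 9 were lower and 1 higher, when 36.9% of all genes were called. Those called lower without the block included H2-T3 at -1.06 (adjusted p = 0.0074) and H2-T22 at -0.45 (adjusted p = 0.0106). Among the partners 6 were higher, with Psme3 at 0.40 and Calr at 0.33, and 2 lower, with Lnpep at -0.34, together 8 of 16. The medians at 24 h were -0.33 for the heavy chain genes, -0.14 for the interferon pathway genes, 0.06 for the partners and 0.03 for the factors, against 0.00 over all genes. At 16 h no partner and no further heavy chain gene was called without the block, and with it 4 heavy chain genes were lower, beside 7.75% and 14.8% of all genes. Stat3 (-0.45, adjusted p = 3.83e-04) and Irf8 (-0.43, adjusted p = 0.00159) fell and Ifngr1 (0.31, adjusted p = 0.00601) rose already at 16 h.

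Some markers of epithelial cell types also changed. In the double knockout 4 of 14 intestinal markers were higher and 3 lower, beside 17.3% of all genes, with Lyz1 of Paneth cells at 2.13, Krt20 of mature enterocytes at 1.88, Muc2 of goblet cells at 1.36 and the stem cell gene Lgr5 at -1.23. Their summed CPM were 9211 to 9514 in WT and 10409.7 to 11593 in the double knockout. With Senexin B at 24 h 5 were higher and 3 lower, beside 27.5% of all genes. Lyz1, Lgr5 and Krt20 were lower (-1.02, -0.97 and -0.82), so that Lyz1 and Krt20 had opposite signs in the experiments, and Chga of enteroendocrine cells was higher (0.66). The summed levels were 10515 to 10718 against 9597 to 10096 with DMSO. In these bulk libraries a change in the share of a cell type cannot be told apart from a change in transcript per cell, and the part of these shifts in the class I values was not tested. Few genes of the other marker lists passed the filter. In the double knockout Acta2, of smooth muscle, and Csn3, a mammary casein, were called higher, with at most 24 and 23 raw counts in any genotype library, and against WT 0 of 3 tested haematopoietic markers were called (Ptprc 2.16, adjusted p = 0.0807, and Itgam 1.42, adjusted p = 0.0643). With Senexin B at 24 h Csf1r, of macrophages, was called higher (0.80, adjusted p = 0.0498), while the summed haematopoietic markers reached at most 1.71 CPM there. Of the class II presentation genes, 3 of 11 could be tested in the genotype experiment, and H2-DMa fell by 1.05 in the double knockout (adjusted p = 0.0361).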

How the data were processed

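The authors aligned the reads with STAR (2.6.0c in the submitters' processing notes) to GRCm38.p6, using Ensembl release 93 genes, and deposited raw counts per gene and library, in which multimapping reads are not counted. Between 63.1% and 65.2% of the genotype reads and between 21.5% and 25.1% of the Senexin B reads in the tables fell on no gene in the reverse-strand column, which was used here as the count, and these totals limit the precision of rare genes.

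Each experiment was fitted on its own with edgeR 4.0.16 (TMM, filterByExpr with a minimum count of 10, quasi-likelihood test, all 12 libraries in 1 model) in R 4.3.3, with Benjamini-Hochberg adjustment over all genes tested and a threshold of 0.05. Normalised counts are counts scaled by the TMM library sizes. Ratios were compared with an exact permutation test in SciPy 1.17.1. DESeq2 1.42.0, other filters, the unstranded counts, other fits, the replicate block and the removal of each library served as alternatives. On simulated data edgeR recovered 39 of 50 genes changed 1.5-fold in the genotype experiment (20236 genes) and 42 of 50 in the Senexin B experiment (20140 genes), and 50 of 50 changed 2-fold in each. Only genes with mean counts above 50 were changed, and the simulated spread was set beforehand and not estimated from these libraries. These shares thus do not give the power for the members. No pair of libraries within a group was a duplicate, and pairs across groups were not compared.

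Libraries of the same number deviated together in the Senexin B comparisons, with correlations of their deviations from the group means of 0.101 to 0.303 at 16 h and 0.137 to 0.377 at 24 h, all above 0.1 and highest for replicate 1. Pairs of different numbers reached 0.154 and 0.147, above the lowest of these values, and the pairing rests on these correlations alone.

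The rule named all members and, of each other list, at most the 4 called genes of largest change. Irf1, the interferon genes and the constitutive proteasome subunits were named outside that rule, after their values had been seen. The members and lists were chosen with earlier results of these data known. The exclusions of the 2 libraries at the WT level of Cdk19 and of replicate 1 of all Senexin B groups were added after seeing the data. Some genes that this rule picks, and the other genes of the lists, enter the counts only.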

Additional observations from a re-analysis of the deposited data

How the results depend on the processing

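Of the members' log2 fold changes under the alternatives, 1261 kept their direction and their side of the threshold and 102 changed sign without being called in either fit (main values up to 0.49 in size, adjusted p of 0.351 or more). Another 23 newly passed the threshold and 12 no longer did, all with their sign kept. Without a filter on low counts 2 members were called in Cdk19-/- against WT, 4 in the double knockout against WT, 2 in the double knockout against Cdk19-/- and 2 with Senexin B at 24 h, beside 1.61%, 9.71%, 13.8% and 15% of all genes in the same fits. With only the groups compared in the fit, 5 members were called in the double knockout against WT and 0 with Senexin B at 24 h (18.6% and 30.7% of all genes), and DESeq2 called 1, Nlrc5, in the double knockout against Cdk19-/- (14.7%). Leaving out a library gave 0 to 2 members in the double knockout against WT (8.47% to 15.4% of all genes). It gave 0 to 2 against Cdk19-/- (15.1% to 27.1%) and 0 to 3 with Senexin B at 24 h (16.9% to 32.2%). For the difference between 24 h and 16 h it gave 0 to 1 (0% to 4.93%), and for DMSO over time 0 to 2 (2.75% to 16.1%). The upper values of the last 3 came without replicate 1 of all groups, an exclusion chosen after seeing the data. Without the 2 libraries at the WT level of Cdk19, likewise chosen after seeing the data, 2 members were called in the double knockout against Cdk19-/- (28.5%). Replicate numbers paired the libraries in the Senexin B comparisons: with the replicate block 4 members in place of 1 were called at 24 h (36.9% of all genes in place of 27.5%), and 1, Psmb10, in DMSO over time (21.2%), where the numbers did not pair the libraries (correlations of -0.05 to 0.37), and the block changed no other call of a member. In the genotype experiment the numbers did not pair the libraries (correlations of -0.19 to 0.22), and B2m with the block had an adjusted p of 0.0334 in the double knockout. The cause of these shifts was not tested. Psmb8 had the widest intervals of the members tested in the genotype experiment, where Nlrc5 did not pass the filter on low counts.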
